A study of Homo sapiens with 6 samples.

Results

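The genes described here encode the core of the JAK-STAT pathway in T cells. They are the Janus kinases JAK1, JAK2 and JAK3, the transcription factors STAT3, STAT5A and STAT5B, the feedback inhibitors SOCS1, SOCS3 and CISH, and the kinase PIM1, a classical STAT target. Members were found by gene symbol in the platform annotation, with the probe set of the highest mean signal taken for each symbol. All 10 genes were found, each with 1 probe set, among 21448 probe sets and 17687 named genes on the array. Their levels and changes were compared between Jurkat cells given CXCL12 at 100 ng/ml for 15 min (CXCL12, n = 3 arrays) and Jurkat cells left unstimulated (untreated, n = 3 arrays). Both groups had been kept without serum for 90 min beforehand. Jurkat is an established human line from a T-cell acute lymphoblastic leukaemia, so both groups are 1 cell line. CXCL12 is a chemokine that acts through the G protein-coupled receptor CXCR4, and the series asks how its addition alters the transcriptome. Titles call the arrays biological replicates without saying that each came from its own culture, so the p-values measure the spread between these arrays, which may be technical in part.

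In the textbook pathway, a cytokine brings together receptor chains whose tails carry Janus kinases. The kinases phosphorylate the receptor and then STAT proteins, which pair up, enter the nucleus and bind DNA. Genes switched on this way include those of the SOCS family, whose proteins shut the receptor and kinases down again. In T cells JAK1 and JAK3 serve receptors built with the common gamma chain, such as those for IL-2 and IL-7, and STAT5A and STAT5B are their main effectors. Most steps of this pathway act on proteins, which an RNA array does not measure.

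No transcript of the 10 genes passed the test for a difference between CXCL12 and untreated cells. Their log2 changes (CXCL12 minus untreated) ran from -0.27 for CISH to 0.22 for SOCS1, 5 above 0 and 5 below it, and their median was -0.01. Over all 16086 tested probe sets the median was 0.00228, and 8148 lay above 0 and 7938 below. By limma with Benjamini-Hochberg adjustment over all tested probe sets, 0 of the 10 passed the threshold of 0.05, where 2 of all probe sets did (0.0124%), and each of the 10 had an adjusted p of 0.996. Before adjustment, 0 of the 10 had a limma p under 0.05, against 4.73% of all tested probe sets, a share that amounts to less than 1 gene in 10. The smallest unadjusted p-values were those of STAT5A (0.127), STAT5B (0.133), SOCS1 (0.140) and CISH (0.172), all from limma.

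The intervals bound how large a change in array signal, on the deposited scale, these arrays leave room for. The 95% interval lay within a 1.5-fold change in either direction for 8 of the 10 genes, against 89.9% of all tested probe sets. The exceptions were JAK2, whose interval reached 1.55-fold higher, and CISH, whose interval reached down to 0.625 times the untreated level. The interval ran from 0.804 to 1.17 times the untreated level for JAK1 and from 0.840 to 1.22 times for PIM1. For scale, the same fit placed EGR1, an immediate early transcription factor, at 3.96 times the untreated signal (adjusted p = 4.52e-05), and CD69, an early lymphocyte activation receptor, at 2.53 times (adjusted p = 0.0394). EGR1 passed in 14 of 14 alternative fits and CD69 in 7. With CXCL12 replicates 1, 2 or 3 left out, CD69 had a limma adjusted p of 0.342, 0.0687 and 0.532, and with untreated replicate 2 left out it had 0.0674.

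**Figure D1:**
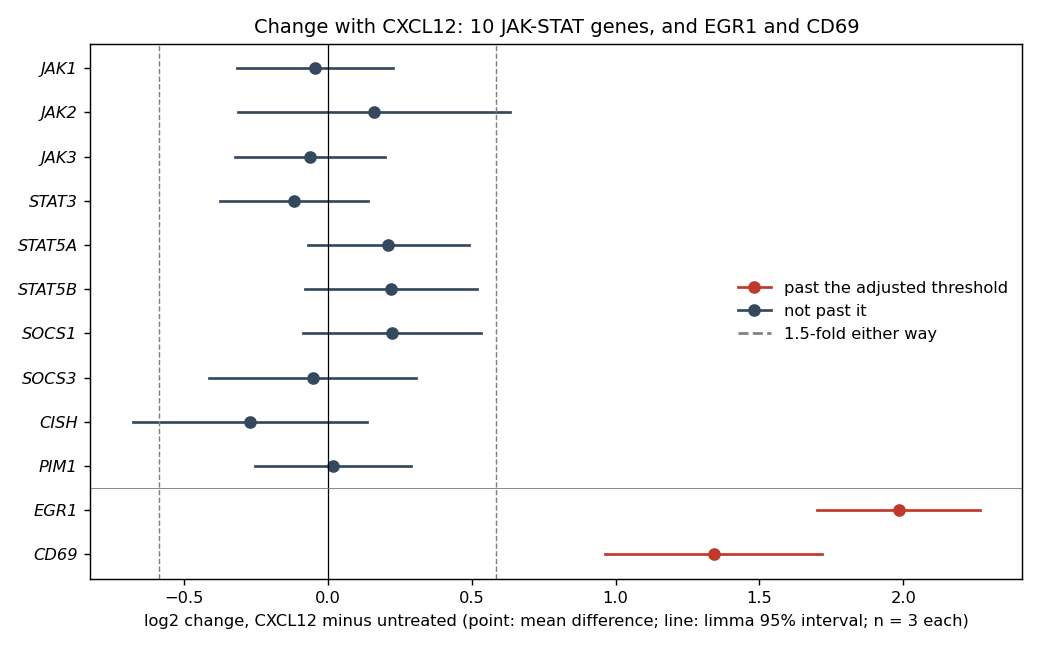
Log2 change (CXCL12 minus untreated, horizontal axis) of the 10 genes and of EGR1 and CD69, with points for the difference of means and lines for the limma 95% interval (n = 3 arrays each). Every interval of the 10 genes includes 0, those of JAK2 and CISH cross a dashed 1.5-fold line, and EGR1 (1.98) and CD69 (1.34) lie to the right of it.

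Array quality was similar throughout, with 1 array apart. Median log2 signals ran from 6.18 to 6.22. Untreated replicate 1 had a mean correlation with the others of 0.982, against 0.987 to 0.989 for the remaining arrays, and lay at -27.8 on the first principal component. CXCL12 replicate 2 was next at -5.84, and the other arrays lay between 5.26 and 11.6. Of 11 T cell markers 10 had a named probe set, and all 10 had mean log2 signals between 8.26 and 11.4, above the 4.44 below which probe sets were left out as dim. Of 12 markers of other cell types with a named probe set, 4 were below that limit (MS4A1, LYZ, KLRD1 and EPCAM) and 8 above it, among them CD79A (7.92) and KRT8 (7.72). The myeloid markers ITGAM (5.01) and CSF1R (6.10) were also above it. Mean signals of JAK2 (5.30), SOCS1 (5.76), CISH (5.79) and SOCS3 (5.98) lay between those of these 2 markers. How far signals at that level follow the transcript was not tested, so intervals of these genes bound the signal only.

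Most ligands of the pathway were too dim to be tested. Of 13 cytokine genes with a named probe set, 11 fell under the signal limit and were not tested. IL2, the main T cell growth factor, was one (2.63 in CXCL12 and 2.66 in untreated arrays on average), and IL4, IL7, IL15 and IL21 were others. The 2 tested ligands were LIF and OSM, cytokines that signal through the shared chain gp130, with log2 changes of -0.00641 and -0.08.

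Among the receptor chains, 15 of 20 were tested, 10 above 0 and 5 below, and 0 passed (limma adjusted p from 0.996 to 0.999). A single chain, IL10RB of the IL-10 receptor, had an unadjusted p just under 0.05, and it was above 0.05 with no filter, with the replicate block and in 5 of the 6 fits that omitted an array. IL10RB had log2 signals of 7.12, 7.17 and 7.48 in CXCL12 arrays, against 7.58, 7.51 and 7.53 in untreated arrays, a change of -0.28. All its CXCL12 arrays were below its untreated ones, by a gap that CXCL12 replicate 3 made narrow. IFNGR1, the ligand-binding chain of the interferon gamma receptor, had 7.75, 7.79 and 7.87 in CXCL12 arrays, against 7.69, 7.49 and 7.54 in untreated arrays, a change of 0.23. Its groups did not overlap either, and its 95% interval of -0.02 to 0.49 included 0. IL2RG, the common gamma chain that pairs with JAK3, had a log2 change of -0.01, and IL2RB one of 0.06. IL2RA, IL7R, IL21R, LIFR and OSMR were left out as dim. Of these, IL21R had 3.40, 4.12 and 3.67 in CXCL12 arrays, against 3.03, 3.31 and 3.29 in untreated arrays, without overlap. In the fit with no filter on dim probe sets its change was 0.52 (limma adjusted p = 0.992).

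JAK1, the kinase used by most cytokine receptors of T cells (probe set TC0100014457.hg.1), had log2 signals of 8.32, 8.26 and 8.47 in CXCL12 arrays, against 8.38, 8.53 and 8.27 in untreated arrays. The arrays of the groups were interleaved, with the highest in untreated replicate 2 and the lowest in CXCL12 replicate 2. The means were 8.35 ± 0.11 in CXCL12 and 8.39 ± 0.13 in untreated arrays (SD, n = 3 each), which is a log2 difference of -0.04 (SE 0.12, 95% interval -0.32 to 0.23).

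JAK2, which serves receptors such as those for erythropoietin and interferon gamma (TC0900006538.hg.1), had 5.76, 4.79 and 5.60 in CXCL12 arrays, against 4.97, 5.37 and 5.33 in untreated arrays. CXCL12 arrays held both its highest value (replicate 1) and its lowest (replicate 2). The means were 5.38 ± 0.52 in CXCL12 and 5.22 ± 0.22 in untreated arrays (SD, n = 3 each), which is a log2 difference of 0.16 (SE 0.22, 95% interval -0.31 to 0.63). JAK2 varied most of the 10 genes, with an SD of 0.37 over the 6 arrays. Its lowest values were in CXCL12 replicate 2 and untreated replicate 1, the arrays that were also lowest on the first principal component, and the part of that axis in the JAK2 values was not tested.

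JAK3, the kinase bound to the common gamma chain (TC1900009991.hg.1), had 7.85, 7.87 and 7.73 in CXCL12 arrays, against 7.76, 7.91 and 7.96 in untreated arrays. It was the steadiest of the Janus kinases, and its groups overlapped. The means were 7.82 ± 0.07 in CXCL12 and 7.88 ± 0.11 in untreated arrays (SD, n = 3 each), which is a log2 difference of -0.06 (SE 0.12, 95% interval -0.32 to 0.20). TYK2, the remaining Janus kinase, had a log2 change of 0.09 (95% interval -0.18 to 0.36).

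**Figure D2:**
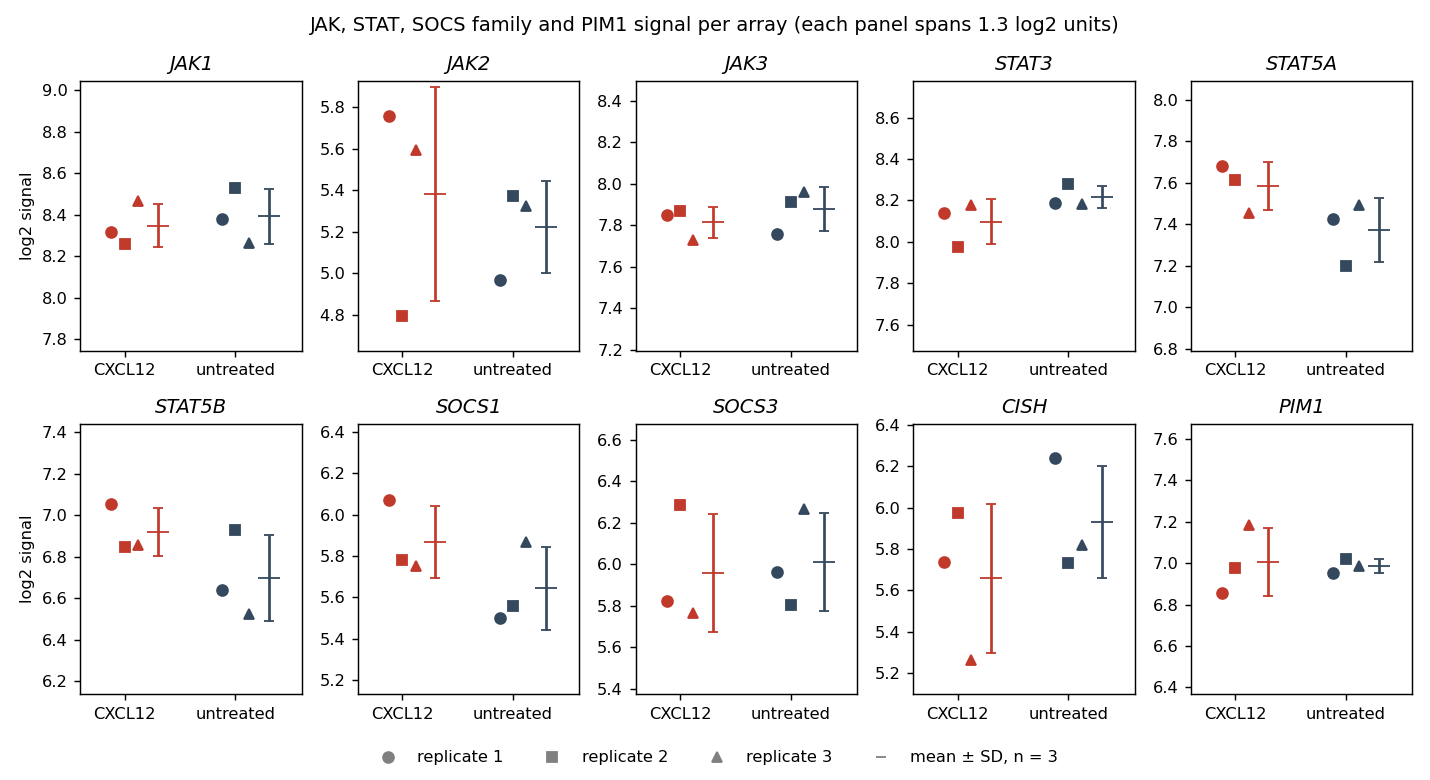
Log2 signal (vertical axis, panels of equal span) of each of the 10 genes in every array, with CXCL12 in red and untreated in dark blue, symbols for replicate numbers and the mean ± SD (n = 3) beside the points. The groups overlap in 9 panels, and in the STAT3 panel they are apart by a hair (8.178 against 8.184).

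STAT3, the factor used by gp130 cytokines such as IL-6 (TC1700010721.hg.1), had 8.14, 7.97 and 8.178 in CXCL12 arrays, against 8.187, 8.28 and 8.184 in untreated arrays. It was the only one of the 10 genes whose arrays did not overlap between the groups, and CXCL12 replicate 3 and untreated replicate 3 were almost level. Of the 10 genes, 1 was thus lower without overlap, against 4.48% of all tested probe sets, and 0 were higher without overlap, against 5.05%. The means were 8.10 ± 0.11 in CXCL12 and 8.22 ± 0.05 in untreated arrays (SD, n = 3 each), which is a log2 difference of -0.12 (SE 0.12, 95% interval -0.38 to 0.14).

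STAT5A (TC1700007883.hg.1) and STAT5B (TC1700010717.hg.1) encode closely similar proteins that carry the signal of IL-2 and IL-7 to the nucleus. STAT5A had 7.68, 7.61 and 7.46 in CXCL12 arrays, against 7.43, 7.20 and 7.49 in untreated arrays, a log2 change of 0.21 (SE 0.13, 95% interval -0.07 to 0.49). Only untreated replicate 3 lay within the CXCL12 range of STAT5A. STAT5B had 7.05, 6.85 and 6.86 in CXCL12 arrays, against 6.64, 6.93 and 6.53 in untreated arrays, a log2 change of 0.22 (SE 0.14, 95% interval -0.08 to 0.52). Here untreated replicate 2, the lowest of the arrays for STAT5A, was the one within the CXCL12 range. The folds were 1.16 for STAT5A and 1.17 for STAT5B, and neither passed. Probe sequences were not available here, so whether the genes share probes was not checked. The values of either are thus uncertain as a measure of that gene alone. In the RefSeq order of protein-coding genes on chromosome 17, STAT5B, STAT5A and STAT3 follow each other directly, and the annotated spans of STAT5B and STAT5A overlap. The other tested STAT genes were STAT4, which acts downstream of IL-12, and STAT6, which acts downstream of IL-4. Their log2 changes were 0.17 (95% interval -0.09 to 0.44) and 0.18 (-0.11 to 0.47).

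The inhibitors CISH, SOCS1 and SOCS3 are standard transcriptional readouts of STAT activity. Only 15 min of CXCL12 was sampled, so a later change of these transcripts would not be seen here. STAT dimers bind the letters TTCNNNGAA, which read the same on both strands. The 250 bases before the annotated start of these 3 genes are printed here because a STAT response would be read from such promoters. They are RefSeq sequences of build GRCh38.p14, 5′ to 3′ on the gene's strand, with each match to TTCNNNGAA in capitals. The CISH window is chr3:50611775-50612024, the SOCS1 window chr16:11256205-11256454 and the SOCS3 window, the one farther upstream of 2, chr17:78360926-78361175, all on the minus strand.
CISH: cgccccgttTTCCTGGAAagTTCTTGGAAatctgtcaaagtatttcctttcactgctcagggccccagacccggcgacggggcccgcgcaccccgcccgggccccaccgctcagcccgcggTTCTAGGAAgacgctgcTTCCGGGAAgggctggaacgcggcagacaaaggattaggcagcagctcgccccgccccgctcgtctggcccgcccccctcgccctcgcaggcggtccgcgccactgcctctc
SOCS1: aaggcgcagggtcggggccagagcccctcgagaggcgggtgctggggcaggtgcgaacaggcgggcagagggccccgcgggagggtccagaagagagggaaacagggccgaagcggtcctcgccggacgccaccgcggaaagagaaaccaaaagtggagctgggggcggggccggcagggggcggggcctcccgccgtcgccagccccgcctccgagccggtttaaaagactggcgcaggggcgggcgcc
SOCS3: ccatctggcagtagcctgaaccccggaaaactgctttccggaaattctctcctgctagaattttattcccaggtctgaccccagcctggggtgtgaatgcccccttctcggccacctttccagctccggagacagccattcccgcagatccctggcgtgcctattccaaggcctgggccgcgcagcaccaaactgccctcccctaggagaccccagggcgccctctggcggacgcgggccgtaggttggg

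The CISH window held 4 matches, beginning at positions -241, -230, -129 and -112 from the start. At least 1 match was found in 6.57% of the 35116 RefSeq promoter windows, and at least 4 in 5 windows (0.0142%). The 10 genes had 18 windows in all, and only that of CISH held a match. A match is a run of letters and does not show that a STAT protein binds there, and its lack in the other windows says nothing of sites elsewhere in those genes.

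CISH, which blocks STAT5 docking at cytokine receptors (TC0300011124.hg.1), had 5.74, 5.97 and 5.26 in CXCL12 arrays, against 6.24, 5.73 and 5.82 in untreated arrays. CXCL12 replicate 3 was the lowest and untreated replicate 1 the highest, and the remaining 4 arrays lay between 5.73 and 5.97. The highest array of each group, CXCL12 replicate 2 and untreated replicate 1, was again the one lowest on the first principal component, and the part of that axis in the CISH values was not tested. The means were 5.66 ± 0.36 in CXCL12 and 5.93 ± 0.27 in untreated arrays (SD, n = 3 each), which is a log2 difference of -0.27 (SE 0.19, 95% interval -0.68 to 0.14). This was the most negative change of the 10 genes, and it did not pass.

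SOCS1, which binds and inhibits the Janus kinases directly (TC1600009395.hg.1), had 6.07, 5.78 and 5.75 in CXCL12 arrays, against 5.50, 5.56 and 5.87 in untreated arrays. Untreated replicate 3 lay above CXCL12 replicates 2 and 3, so the groups overlapped. The means were 5.87 ± 0.18 in CXCL12 and 5.64 ± 0.20 in untreated arrays (SD, n = 3 each), which is a log2 difference of 0.22 (SE 0.14, 95% interval -0.08 to 0.53).

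SOCS3, the inhibitor best known from gp130 receptors (TC1700011903.hg.1), had 5.83, 6.28 and 5.77 in CXCL12 arrays, against 5.96, 5.80 and 6.27 in untreated arrays. Each group held 1 high array, at nearly the same level. The means were 5.96 ± 0.28 in CXCL12 and 6.01 ± 0.24 in untreated arrays (SD, n = 3 each), which is a log2 difference of -0.05 (SE 0.17, 95% interval -0.41 to 0.31). Among the other SOCS genes, 5 of 5 were tested, 3 above 0 and 2 below, and 0 passed (limma adjusted p = 0.996 for each). SOCS6 had 5.24, 5.30 and 5.50 in CXCL12 arrays, against 4.94, 5.18 and 5.16 in untreated arrays, without overlap (log2 change 0.25, 95% interval -0.02 to 0.53). SOCS4 had a change of 0.22 (-0.09 to 0.53).

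PIM1, a survival kinase whose gene is a STAT5 and STAT3 target (TC0600007862.hg.1), had 6.85, 6.98 and 7.18 in CXCL12 arrays, against 6.95, 7.02 and 6.99 in untreated arrays. The untreated arrays were close together, and the CXCL12 arrays lay on both sides of them. The means were 7.01 ± 0.17 in CXCL12 and 6.99 ± 0.03 in untreated arrays (SD, n = 3 each), which is a log2 difference of 0.02 (SE 0.12, 95% interval -0.25 to 0.29). The related kinases had log2 changes of -0.14 (PIM2) and 0.07 (PIM3).

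Of the other genes known as STAT targets, 11 of 12 were tested, 7 above 0 and 4 below, and 0 passed (limma adjusted p = 0.996 for each). The smallest unadjusted p-values here were those of GBP1 and MCL1. GBP1, an interferon-induced GTPase, had 7.71, 7.64 and 7.77 in CXCL12 arrays, against 7.02, 7.22 and 7.57 in untreated arrays, a log2 change of 0.43 (95% interval 0.12 to 0.75, limma adjusted p = 0.996). MCL1, an anti-apoptotic BCL2 family gene, had 9.26, 9.34 and 9.37 in CXCL12 arrays, against 8.92, 9.08 and 9.03 in untreated arrays, a log2 change of 0.31 (95% interval 0.06 to 0.57, limma adjusted p = 0.996). Neither gene had overlapping groups, and untreated replicate 3 was close to the CXCL12 arrays for GBP1. BCL2L1, BCL6, CCND2, CCND3, CDKN1A and IRF1 had changes between -0.06 and 0.27.

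Inhibitors outside the SOCS family were tested in 10 cases, 3 above 0 and 7 below, and 0 passed. PTPN6, a phosphatase that dampens cytokine and antigen receptor signals, had 8.01, 7.83 and 7.83 in CXCL12 arrays, against 8.04, 8.34 and 8.33 in untreated arrays. Its CXCL12 arrays were all lower, narrowly so against untreated replicate 1, and its log2 change was -0.35 (95% interval -0.63 to -0.06, limma adjusted p = 0.996). PTPN1, a phosphatase that acts on JAK2 and TYK2, had 9.43, 9.36 and 9.44 in CXCL12 arrays, against 9.17, 9.23 and 9.20 in untreated arrays, a change of 0.21 (95% interval -0.04 to 0.45). The adaptors and coactivators had 5 of 5 tested genes with a negative change, led by STAM at -0.18 and CREBBP at -0.11, and each interval included 0. STAM2 (-0.04), SH2B1 (-0.008) and GRB2 (-0.006) were near 0, and CREBBP took both signs when single arrays were left out. Of all 16086 tested probe sets, 7938 were below 0.

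Over all roles, 66 of 71 listed genes had a named probe set and 50 were tested. Changes of 26 were above 0 and of 24 below, their median was 0.02, and 0 passed by limma. Before adjustment, 2 higher genes (GBP1 and MCL1) and 2 lower ones (PTPN6 and IL10RB) of the 50 had a limma p under 0.05, against 4.73% of all tested probe sets. Of these 4, GBP1 stayed under 0.05 whichever single array was omitted. MCL1 did not without CXCL12 replicate 3, PTPN6 did not without CXCL12 replicate 2 or 3 or untreated replicate 2 or 3, and IL10RB did so only without CXCL12 replicate 3. With the replicate block IL10RB was above 0.05 and the other 3 under it. The 4 genes were picked by their p in these same arrays, so such fits do not test them anew. Of the 50 tested genes, groups did not overlap for 8 that were higher and 2 that were lower, against 5.05% and 4.48% of all tested probe sets. The shares higher without overlap and with an unadjusted limma p under 0.05 were above those of all probe sets, which was not tested. The list was chosen with earlier results of these data known, so its shares are not independent of the data.

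**Figure D3:**
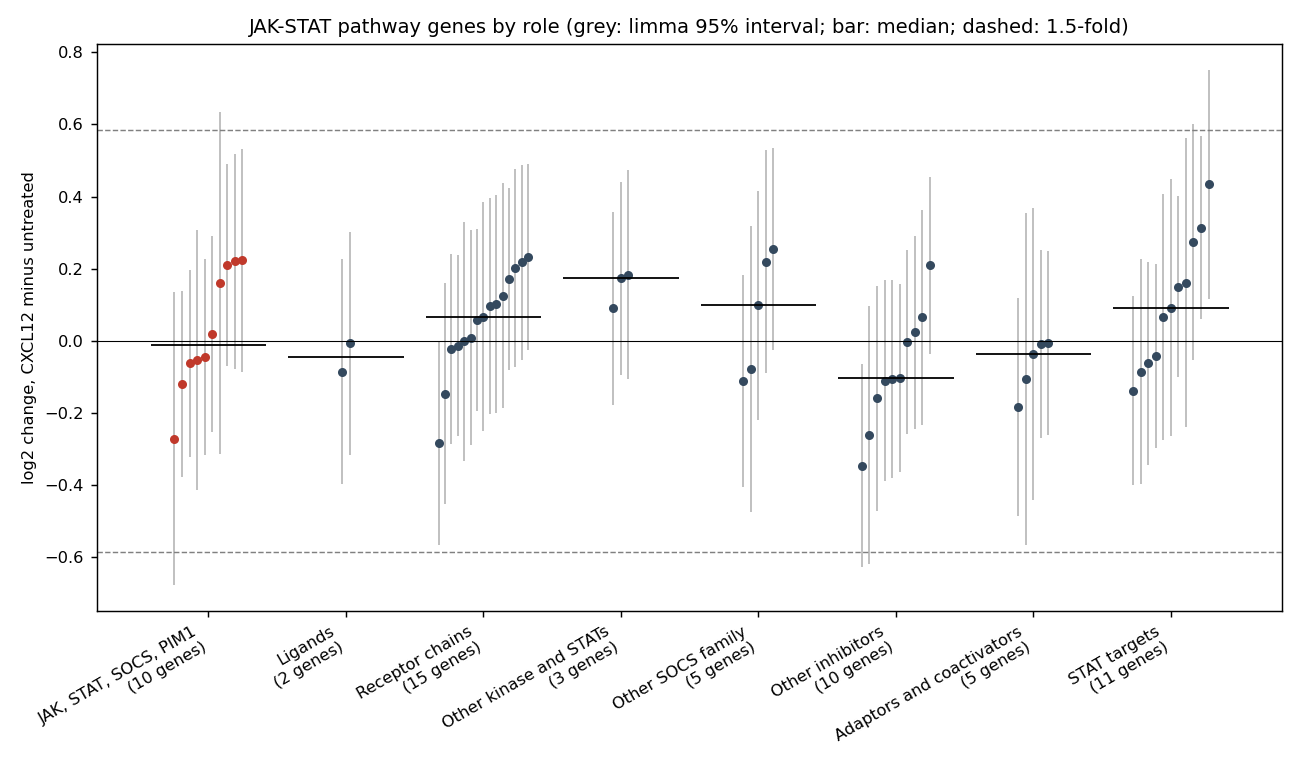
Log2 change (CXCL12 minus untreated, vertical axis) of every tested pathway gene by role, with the 10 JAK, STAT, SOCS and PIM1 genes in red, limma 95% intervals in grey, a bar at each median and dashed lines at 1.5-fold. Points of each role lie on both sides of 0 except for the ligands, the adaptors and the 3 genes of other kinases and STATs, and the interval of 4 points leaves out 0.

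Single arrays moved most of these values. Without CXCL12 replicate 2 the change of JAK2 was 0.46 (limma adjusted p = 0.762), without CXCL12 replicate 1 it was -0.03, and without untreated replicate 1 it was 0.03. CISH was at -0.43 without CXCL12 replicate 2 (limma adjusted p = 0.788), at -0.07 without CXCL12 replicate 3 and at -0.12 without untreated replicate 1. STAT5B was at 0.34 without untreated replicate 2 (limma adjusted p = 0.904) and SOCS1 at 0.34 without untreated replicate 3 (limma adjusted p = 0.917). Before adjustment these 4 results (JAK2 and CISH without CXCL12 replicate 2, STAT5B without untreated replicate 2 and SOCS1 without untreated replicate 3) had a limma p under 0.05. They were picked from 6 fits of 10 genes each. In the fit of all 6 arrays, 4.73% of all tested probe sets were under 0.05, and the share in the smaller fits is not given here. STAT5A, STAT5B and SOCS1 stayed positive, and STAT3, JAK3 and CISH negative, whichever single array was omitted. JAK1, JAK2, SOCS3 and PIM1 took both signs. In no such fit, that without untreated replicate 1 included, did any of the 10 genes pass the adjusted threshold.

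**Figure D4:**
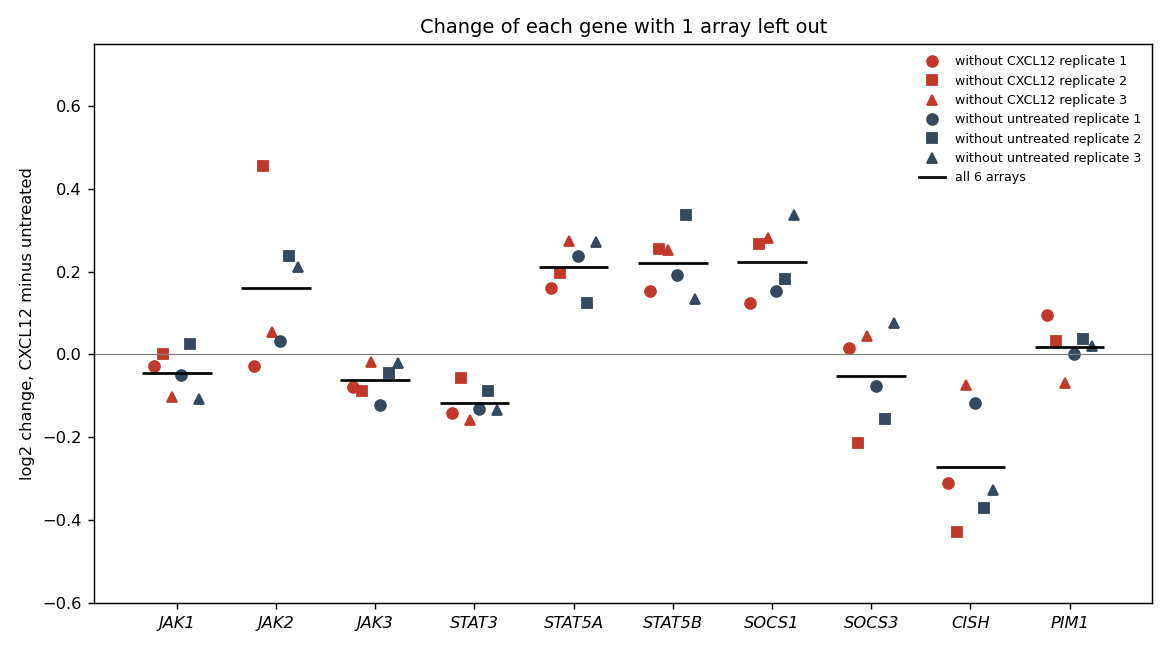
Log2 change (CXCL12 minus untreated, vertical axis) of the 10 genes in the 6 fits that each left out 1 array, coloured by the group and shaped by the replicate left out, with a black line for the fit of all 6 arrays. JAK2 ranges from -0.03 to 0.46, CISH from -0.43 to -0.07, and STAT3 from -0.16 to -0.06.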

How the data were processed

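RNA of 6 Jurkat samples was hybridised, 1 array each. Values are log2 signals per probe set as the authors deposited them. Per the submitters' processing notes, RMA and Transcriptome Analysis Console were used. Their versions and the build were not given in the sources used here. Of 21448 probe sets, 17709 had 1 gene symbol in the platform annotation, 0 had several and 3739 are unnamed here. The number of arrays limits the precision. Scanner files were not used here.

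Groups were compared in R 4.3.3 by limma 3.58.1, using lmFit with eBayes, a two-sided test without covariates, and Benjamini-Hochberg adjustment at 0.05. Probe sets below the 25th percentile of the mean over all arrays were left out, which left 16086. The fit was tested on simulated data. The noise there was independent and of equal size in every array, so an array apart from the rest is not covered. Folds are on the deposited scale, and signals were read against the limit for dim probe sets but not used to rank genes by level. The 10 members and the pathway lists were chosen with earlier results of these data known. In each role of the list, the 2 genes with the smallest unadjusted p were named. Others were named as examples after their values were seen. No pairing is stated for the replicate numbers 1 to 3. After subtracting group means, arrays with equal numbers correlated at -0.19, -0.11 and 0.11, so the numbers were not taken as pairs. Alternatives were other filters, scalings, a replicate block, array weights, another prior and leaving out each array.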

Additional observations from a re-analysis of the deposited data

How the results depend on the processing

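None of the 10 genes passed the adjusted threshold under any alternative run (136 values, smallest limma adjusted p 0.762), and the count of pathway genes past it also stayed at 0. The lower 50% filter left 6 of the 10 genes, so 4 were not tested there. Of the 136 values, 128 kept their sign. Filters, the replicate block and the other prior cannot alter a difference of group means in this balanced design. The signs in those fits were thus fixed in advance, and JAK2 stayed at 0.16 with the block. The block changed no call at the adjusted threshold (2 probe sets passed, 0 of the 10 genes). Median centring turned PIM1 to -0.00207. The median change of all probe sets was 0.00726 as deposited, -0.0141 with median centring, 0.000795 after cyclic loess and 0.00128 after repeated quantile normalization. Array weights gave CREBBP a change of 0.00353. With each array left out in turn, JAK1 ran from -0.106 to 0.0248, JAK2 from -0.0270 to 0.455, SOCS3 from -0.215 to 0.0758 and PIM1 from -0.0696 to 0.0945. CREBBP ran from -0.289 to 0.154, LIF from -0.081 to 0.127 and OSM from -0.195 to 0.0383. The number of the 10 genes with an unadjusted p under 0.05 ran from 0 to 2, and the share of all probe sets in those fits is not given here. The count of 2 probe sets over the whole array became 4 with array weights, 3 under the trended robust prior or the 50% filter, and 1 under cyclic loess, median centring or no filter, and ran from 1 to 2 with each array left out. The causes were not tested. Every gene of the 10 has 1 probe set, so averaging probe sets changes nothing. A 95% interval reached, by the median over the array, 0.29 to either side of its estimate (1.23-fold). This is the precision of a single unadjusted estimate and not a limit of detection.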

Other observations

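Some genes followed a member closely over the 6 arrays, given here as a description. The tested genes most like JAK2, the member that varied most, were KLHL24, N4BP2L1 and ZNF185 (Pearson correlations of 0.995, 0.994 and 0.994), and 66 of the 13459 genes compared exceeded 0.95. Those most like STAT5A, the member with the smallest p, were HPCAL1, ZNF823 and HTR3E (0.998, 0.998 and 0.983), with 25 genes above 0.95. With 6 arrays and this many genes, high values are common.

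Genes were also sorted by the letters TTCNNNGAA in the 250 bases before a RefSeq start, a description added after the results were seen. The 786 tested genes with at least 1 match had a median log2 change of -0.00680 (377 positive, 409 negative), and 1 of them passed by limma. The 10101 with none had a median of -0.00390 (4935 positive, 5166 negative), and 0 passed. Over all tested probe sets 2 passed (0.0124%), and the remaining gene of these had no window here and fell in neither class. A link between matches and changes was not tested. The 24 genes with 2 or more matches, CISH among them, had a median of -0.08 (9 positive, 15 negative), and 0 of them passed by limma.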
